A study of Drosophila melanogaster with 6 samples.

Results

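Tubulin genes and genes of the CCT chaperonin were compared between SL2 and Kc167, a pair of established Drosophila melanogaster cell lines derived from embryos. The genes were taken from the clones on the array that carry a single current gene symbol, with a symbol that starts with alphaTub, betaTub, gammaTub or CCT followed by a digit, and that had a value on all 6 arrays. The genes were chosen by the presence of a log ratio on all 6 arrays and not by its size, although results of these data were known when the family was picked. The rule gave 10 genes, 5 tubulins and 5 CCT subunits, among 2216 named genes and 7201 features (a named gene or an unnamed clone) with values on all arrays. RefSeq lists 11 tubulin genes of these names and 8 CCT genes in the fly. The other 6 tubulin genes (alphaTub67C, alphaTub84B, betaTub56D, betaTub60D, betaTub97EF and gammaTub23C) and CCT3, CCT6 and CCT7 have no clone under their name here, and their clones may lie among the 4985 unnamed features.

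Per the labels, both lines were untreated and were kept at 22 °C as dense cultures. Gentamicin at 20 µg/mL is listed for all 6 arrays. SL2 cells grew in CCM3 medium and Kc167 cells in a Schneider medium with 5% fetal bovine serum, so the line and its medium cannot be told apart. Labelled cDNA of the lines was hybridised together to spotted cDNA clones, with SL2 in Cy5 and Kc167 in Cy3 on 3 arrays and with the dyes exchanged on the other 3. Values are log2 ratios of SL2 over Kc167, so a positive value means more transcript in SL2. This direction is likely, from the order of the lines in the sample titles, and is not stated; if it were opposite, every sign in the text would turn. The labels do not name the log base, which was read as 2. The RNA came from whole cultures, so more cells with a transcript and more transcript per cell cannot be told apart. A ratio gives no level, so it cannot be read from these data whether either line lacks a transcript or which tubulin is the most abundant.

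Alpha- and beta-tubulin form the heterodimer from which microtubules are built, and gamma-tubulin sits at microtubule minus ends and starts new microtubules. Newly made alpha- and beta-tubulin cannot fold alone. They pass through prefoldin, which hands them to CCT (also called TRiC), a cytosolic ring-shaped chaperonin built from 8 different subunits, and then through the tubulin cofactors that assemble the dimer. Actin takes the same route through prefoldin and CCT. Flies carry generally expressed tubulin genes beside others known from the germline: betaTub85D is the beta-tubulin of the testis and gammaTub37C is the maternal gamma-tubulin of ovary and early embryo.

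Of the 10 genes, 9 had more transcript in SL2, and 1, CCT2, was higher in Kc167. All 5 tubulin genes were higher in SL2, with a median log2 ratio of 1.0, and 4 of the 5 CCT genes were, with a median of 0.78 over the 5. The median over the 10 genes was 0.86, beside -0.02 over all 7201 features and 0.02 over the named genes. A difference between the lines is common on these arrays: limma with Benjamini-Hochberg adjustment called 60.2% of all features at an adjusted p under 0.05, with 28.4% higher in SL2 and 31.8% higher in Kc167. The share of called genes in the family, 10 of 10, is therefore read against 60.2%, its 9 genes higher in SL2 against 28.4%, and its 1 gene higher in Kc167 against 31.8%. At least 2-fold higher ratios in SL2 were found for 4 of the 10 genes (CCT4, alphaTub84D, betaTub85D and alphaTub85E), against 2.99% of all features. Of these, alphaTub85E lay on the limit, at 2.0-fold. The labels do not say that the 3 replicates came from separate cultures, so the p-values measure a spread that may be technical, and precision is limited by having 6 arrays.

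**Figure D1:**
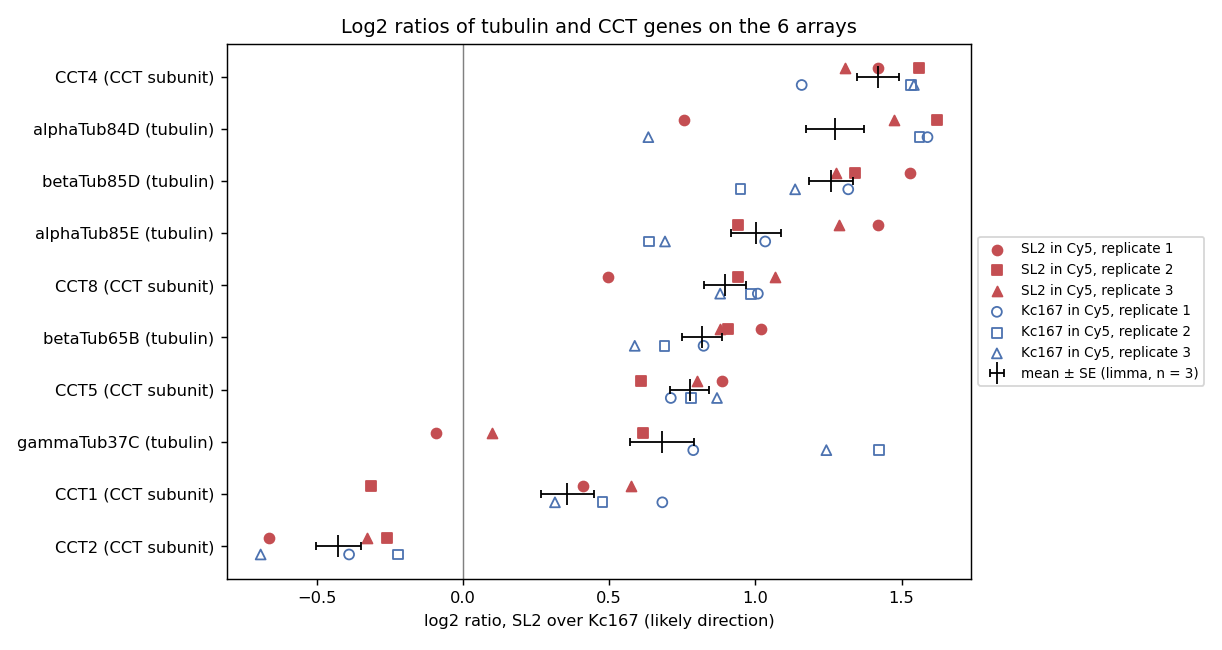
Log2 ratios of SL2 over Kc167 (horizontal axis) for the 10 genes, ordered by their mean. Filled symbols are the 3 arrays with SL2 in Cy5, open symbols the 3 arrays with Kc167 in Cy5, and black bars the mean ± SE of limma (n = 3 replicates). CCT4 is highest at 1.42, CCT2 is the only gene below 0 on all 6 arrays, and the orientations of gammaTub37C stand apart.

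Over the 6 arrays, 7 of the 10 genes were positive on every array and CCT2 was negative on every array. Such uniform signs were found for 23.1% of all features in the positive and for 24.1% in the negative direction. The remaining genes, gammaTub37C and CCT1, were positive on 5 arrays. The array with SL2 in Cy5 of replicate 1 stood somewhat apart from the rest, with correlations across features of 0.64 to 0.73 to the arrays of the other orientation, where the remaining pairs of opposite orientation had 0.78 to 0.83. Without that array, 9 genes were again higher in SL2 and 1 higher in Kc167, and the median over the 10 genes was 0.87. Among the 9, CCT1 then lay at the threshold (0.31, limma adjusted p = 0.05 after rounding).

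Among the alpha-tubulins, alphaTub84D had the largest ratio. It encodes one of the generally expressed alpha-tubulins and lies on arm 3R. Its log2 ratios were 0.75, 1.62 and 1.47 on the arrays with SL2 in Cy5 and 1.59, 1.56 and 0.63 on the arrays with Kc167 in Cy5 (replicates 1, 2 and 3). The values were low on 1 array of each orientation and close to each other on the other 4, so the orientations overlapped. The mean was 1.27 ± 0.10 (SE, n = 3; 2.42-fold; limma adjusted p = 3e-06), and 1.57% of all features had a higher ratio. With an unmoderated fit, in which each feature has only its own variance, alphaTub84D had adjusted p = 0.054. The protein is nearly identical to that of alphaTub84B, and a cDNA clone of one gene can bind transcripts of the other; the part of such cross-binding was not tested, here or for the other tubulin clones.

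alphaTub85E, an alpha-tubulin gene known from testis and a few other cell types, had 1.42, 0.94 and 1.29 with SL2 in Cy5 and 1.03, 0.64 and 0.69 with Kc167 in Cy5. All 6 arrays were above 0, and in each replicate the array with SL2 in Cy5 had the higher ratio. Its mean was 1.0 ± 0.09 (2.0-fold; limma adjusted p = 6.2e-06), the smallest of the 4 that reached 2-fold. The gap between the orientations, 0.43 ± 0.14, did not pass (limma adjusted p = 0.076). With the unmoderated fit the line difference had adjusted p = 0.053.

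Both measured beta-tubulin genes were higher in SL2. betaTub85D, whose product builds the sperm tail axoneme, had 1.53, 1.34 and 1.27 with SL2 in Cy5 and 1.32, 0.95 and 1.14 with Kc167 in Cy5. Its 6 values ran from 0.95 to 1.53 and the orientations overlapped, with a mean of 1.26 ± 0.07 (2.39-fold; limma adjusted p = 5e-07). betaTub65B, another member of the beta-tubulin family, on arm 3L, had 1.02, 0.90 and 0.88 with SL2 in Cy5 and 0.82, 0.69 and 0.59 with Kc167 in Cy5. All 3 values of the first orientation were above all 3 of the second, but this gap of 0.23 ± 0.13 did not pass (limma adjusted p = 0.26). The mean of betaTub65B was 0.82 ± 0.07 (1.76-fold; limma adjusted p = 5.3e-06).

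The other 2 measured genes of the testis marker list did not show the ratio of betaTub85D. The gene dj had a log2 ratio of -0.08 ± 0.08 and soti had -0.09 ± 0.06, and neither passed. On the list of female germline and early embryo genes, only exu and png were measured under a name. The gene exu had 0.29 ± 0.07 (limma adjusted p = 0.0046) and png had -0.45 ± 0.07 (limma adjusted p = 0.00028), so their means had opposite signs. With SL2 in Cy5 alone png had -0.15 (limma adjusted p = 0.28), against -0.74 with Kc167 in Cy5. The call of exu was lost with the unmoderated fit (adjusted p = 0.085) and after the median of neighbouring clones was removed (0.16, limma adjusted p = 0.083).

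The gamma-tubulin gene gammaTub37C had a ratio that differed between the dye orientations. It had -0.09, 0.61 and 0.10 with SL2 in Cy5, against 0.79, 1.42 and 1.24 with Kc167 in Cy5. The orientations did not overlap: the highest value of the first was below the lowest of the second. The difference between them was -0.94 ± 0.14 (SE, n = 3 pairs; limma adjusted p = 0.0098), and 1 of the 10 genes passed this test, beside 9.46% of all features. It passed without replicate 3 (-0.84, limma adjusted p = 0.0018) but not without replicate 1 (-0.97, limma adjusted p = 0.065) or without replicate 2 (-1.01, limma adjusted p = 0.070). The mean over both orientations was 0.68 ± 0.11 (1.6-fold; limma adjusted p = 0.00044). With the unmoderated fit the line difference of gammaTub37C had adjusted p = 0.13. In the arrays with SL2 in Cy5 alone the mean was 0.21 (limma adjusted p = 0.23), against 1.15 in the arrays with Kc167 in Cy5, so its call rested on 1 orientation. The spots of the clone differed by no more than 0.24 on any array, so the gap between orientations was present at both spots. Per the labels, laser power and detector gain for Cy5 were 100 and 66 with SL2 in Cy5 and 95 and 60 with Kc167 in Cy5, so dye and scan settings cannot be told apart.

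**Figure D2:**
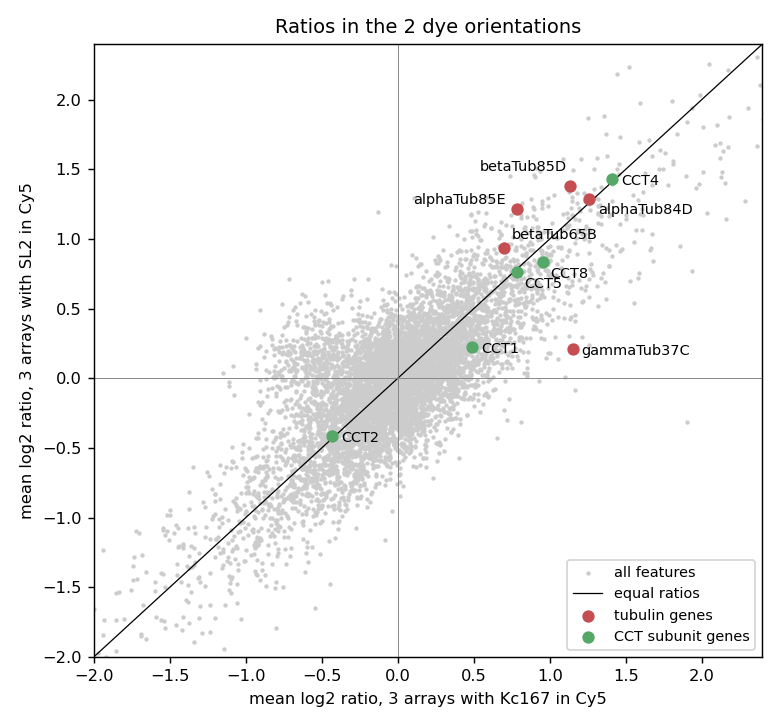
Mean log2 ratio over the 3 arrays with SL2 in Cy5 (vertical axis) against the mean over the 3 arrays with Kc167 in Cy5 (horizontal axis), with all features in grey, tubulin genes in red and CCT genes in green; features beyond the axes are not drawn. Of the tubulin and CCT genes, gammaTub37C lies furthest from the line of equal ratios, at 0.21 (vertical) and 1.15 (horizontal). Next is alphaTub85E, at 1.22 (vertical) and 0.79 (horizontal), and the others lie nearer the line.

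The CCT subunits are encoded by single genes on several chromosome arms, and the ring needs all of them. Their ratios nevertheless ran from 1.42 for CCT4 to -0.43 for CCT2. CCT4, on arm 2L, encodes the delta subunit and had the highest ratio of the 10 genes. Its values were 1.42, 1.56 and 1.31 with SL2 in Cy5 and 1.16, 1.53 and 1.54 with Kc167 in Cy5. These 6 arrays lay close together and the orientations overlapped. The mean was 1.42 ± 0.07 (2.68-fold; limma adjusted p = 1.9e-07), and 1.14% of all features had a higher ratio.

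CCT8, on arm 2R, encodes the theta subunit. It had 0.50, 0.94 and 1.07 with SL2 in Cy5 and 1.01, 0.99 and 0.88 with Kc167 in Cy5. Its lowest value came from the array that stood apart, and the other 5 lay between 0.88 and 1.07. The mean was 0.90 ± 0.07 (1.86-fold; limma adjusted p = 3.8e-06).

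CCT5, also on 2R, encodes the epsilon subunit and was the only gene of the family with 2 clones under its name. Averaged over the clones, it had 0.88, 0.61 and 0.80 with SL2 in Cy5 and 0.71, 0.78 and 0.87 with Kc167 in Cy5. The mean was 0.78 ± 0.07 (1.71-fold; limma adjusted p = 6.1e-06). The clones agreed in direction but not in size. The clone at spots 2071 and 2072 had 1.1 ± 0.08, with arrays from 0.84 to 1.59, while the second clone, at spots 7489 and 7490, had 0.45 ± 0.07, with arrays from 0.18 to 0.72. Their array values did not overlap, and each passed when clones were tested singly (limma adjusted p = 1.6e-06 and adjusted p = 0.00032). This gap between clones of 1 gene is larger than the SE of any gene of the family, and the 9 genes with 1 clone have no such check.

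CCT1, on arm 3R, encodes the alpha subunit and had the smallest ratio of the genes higher in SL2. It had 0.41, -0.31 and 0.57 with SL2 in Cy5 and 0.68, 0.48 and 0.31 with Kc167 in Cy5. The negative value came from a single spot: on the array with SL2 in Cy5 of replicate 2, one spot of the clone read -1.30 and the other 0.67. A gap of that size, 1.97, or larger was found for 0.0633% of all pairs of spots, whose median gap was 0.14. The clone also lacked 2 of its spot values, while no other clone of the family lacked any. The mean of CCT1 was 0.36 ± 0.09 (1.28-fold; limma adjusted p = 0.0068), and with only the higher spot on that array it was 0.52. The call of CCT1 was lost without replicate 1 (0.26, adjusted p = 0.061), in the arrays with SL2 in Cy5 alone (0.22, adjusted p = 0.27), with the unmoderated fit (adjusted p = 0.20), and after subtraction of the median of its 24 neighbours in printing order (0.22, adjusted p = 0.061).

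CCT2 encodes the beta subunit and was the exception among the subunits, with more transcript in Kc167. Its ratios were -0.66, -0.26 and -0.33 with SL2 in Cy5 and -0.39, -0.22 and -0.69 with Kc167 in Cy5. All 6 were negative, and the means of the orientations, -0.42 and -0.43, were almost equal. The mean was -0.43 ± 0.08 (1.34-fold higher in Kc167; limma adjusted p = 0.0009), and 85.1% of all features had a higher ratio. Its 3 replicate values, -0.53, -0.24 and -0.51, did not overlap those of any other gene of the family, which began at 0.08 for CCT1. With the unmoderated fit CCT2 had adjusted p = 0.094. After subtraction of the median of its 24 neighbours in printing order it had -0.26 (limma adjusted p = 0.025). Of the 10 measured genes, CCT2 alone lies on the X chromosome, where CCT6, which has no clone under its name, lies as well. The direct neighbour of CCT2 in gene order, CG7766, was also higher in Kc167, with -1.06 ± 0.08 (limma adjusted p = 1.8e-06). The part of chromosome position was not tested. The only other direct neighbour of the family measured under a name was MCU beside betaTub65B, with 0.53 ± 0.08 (limma adjusted p = 0.00027).

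**Figure D3:**
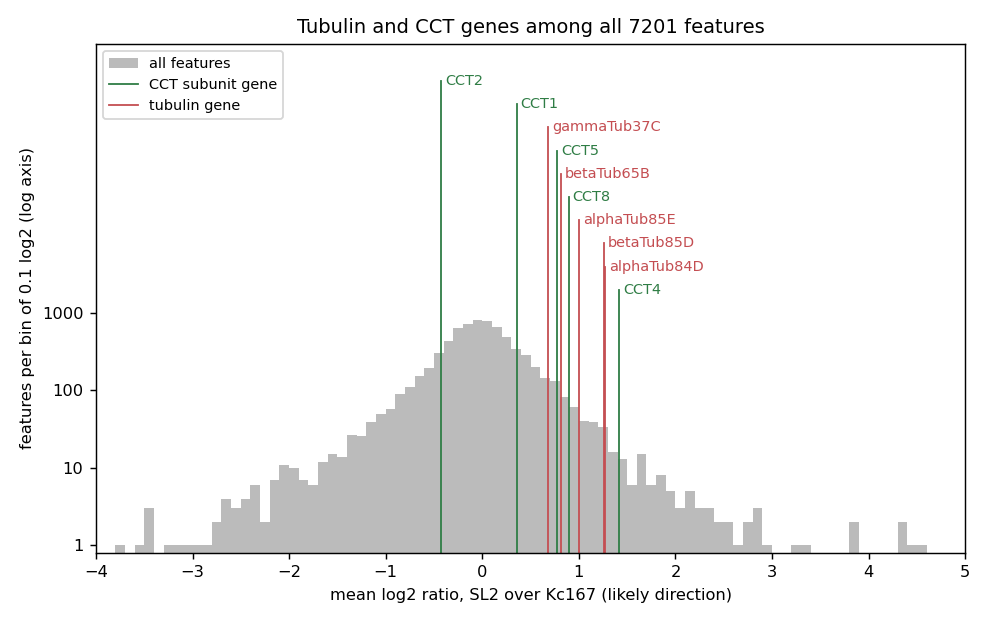
Histogram of the mean log2 ratios of all 7201 features (horizontal axis; bins of 0.1, log vertical axis) with the 10 genes as lines, tubulin genes in red and CCT genes in green. The lines of 9 genes stand right of 0, from 0.36 to 1.42, and CCT2 stands at -0.43.

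In the order of their ratios, the genes ran CCT4, alphaTub84D, betaTub85D, alphaTub85E, CCT8, betaTub65B, CCT5, gammaTub37C, CCT1 and CCT2. Each gene overlapped the next in its 3 replicate values, except CCT1 and CCT2. Neither class led the other throughout, since CCT4 was above every tubulin gene and gammaTub37C below 3 of the CCT genes. The family was not all printed in one place, but some of its clones were close in printing order. These were CCT4 and CCT1 (first spots 13687 and 13691), and betaTub65B and betaTub85D (first spots 1531 and 1545). The median of the 24 clones nearest to each clone of the family, averaged over the 6 arrays, ran from -0.17 beside CCT2 to 0.19 beside betaTub65B, and removing it took the median over the 10 genes to 0.76.

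The named genes whose 6 array values were most like those of CCT4 were CG31886, Cerk and CG10555. Unnamed clones were not compared, here or for CCT2. The root mean square difference to CCT4 over the 6 arrays was 0.15 for CG31886, 0.20 for Cerk, the ceramide kinase gene, and 0.22 for CG10555. CCT2 was most like SuUR (0.09), which encodes a chromatin protein of underreplicated regions, CG12155 (0.12) and larp (0.13), an RNA-binding protein gene. These are likenesses over arrays of a single comparison and carry no test.

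The genes that work before and after CCT in tubulin folding were also higher in SL2, as far as they were measured. Of 20 symbols on the list of folding cofactors and prefoldin, 3 were measured under a name. All 3 were higher in SL2, with a median of 0.46, beside 28.4% of all features. Pfdn4, a prefoldin subunit gene, had 0.85, 0.72 and 0.57 with SL2 in Cy5 and 0.64, 0.80 and 0.99 with Kc167 in Cy5. These values overlapped between orientations and gave 0.76 ± 0.06 (1.69-fold; limma adjusted p = 5.4e-06). The gene mgr, which encodes another prefoldin subunit, had 0.46 ± 0.07 (1.38-fold; limma adjusted p = 0.00044), with 0.99 on the array that stood apart and 0.23 to 0.53 on the other 5. Tbcd, the gene of a tubulin cofactor, had 0.27 ± 0.07 (1.20-fold; limma adjusted p = 0.0065), and without replicate 3 it had 0.22 (limma adjusted p = 0.064). With SL2 in Cy5 alone Tbcd had 0.17 (limma adjusted p = 0.17). With the unmoderated fit neither mgr (adjusted p = 0.077) nor Tbcd (adjusted p = 0.080) passed.

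Of 3 measured genes of the mitochondrial chaperonin Hsp60, 1 was higher in Kc167 and 2 did not pass, a share near the 31.8% of all features. Hsp60B, an Hsp60 gene known from spermatogenesis, had -2.0, -1.45 and -1.50 with SL2 in Cy5 and -0.33, -0.06 and -1.24 with Kc167 in Cy5. All arrays had the same sign but the orientations differed, and the mean was -1.1 ± 0.10 (2.14-fold higher in Kc167; limma adjusted p = 1.2e-05); with the unmoderated fit it had adjusted p = 0.069. Hsp60C had 0.04 ± 0.06 and Hsp60D 0.14 ± 0.06. Among the actins and other CCT substrates, the only measured gene was the flight muscle actin gene Act88F, with 0.42 ± 0.09 (limma adjusted p = 0.0023) and 0.76 with SL2 in Cy5 against 0.08 with Kc167 in Cy5. On the arrays with Kc167 in Cy5 it did not pass (limma adjusted p = 0.58), nor with the unmoderated fit (adjusted p = 0.15).

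Genes of the gamma-tubulin complex and the centrosome had no member that passed as higher in SL2. Of 4 measured, 2 were higher in Kc167, beside 31.8% of all features, and 2 did not pass, with a median of -0.32. The gene spd-2, whose product recruits material around the centriole, had -0.95, -0.80 and -0.80 with SL2 in Cy5 and -0.20, 0.01 and -0.54 with Kc167 in Cy5. Its mean was -0.55 ± 0.07 (1.46-fold higher in Kc167; limma adjusted p = 0.00014), and the orientations did not overlap. The call of spd-2 was lost on the 3 arrays with Kc167 in Cy5 (-0.24, limma adjusted p = 0.12) and with the unmoderated fit (adjusted p = 0.061). Cep135, a centriole protein gene, had -0.55 ± 0.07 (limma adjusted p = 9e-05), with a gap between orientations as well. Grip71, a partner of the gamma-tubulin ring complex, had -0.02 ± 0.07, and ana2, a centriole duplication gene, had -0.08 ± 0.08. The mean of the maternal gamma-tubulin gene was opposite in sign to those of spd-2 and Cep135, the 2 centrosome genes that passed. Each of these genes also had a ratio that differed between the orientations.

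Genes of proteins that bind, cut or modify microtubules were divided. Of 13 measured, 6 were higher in SL2, 3 higher in Kc167 and 4 did not pass, with a median of 0.09, beside 28.4% of all features higher in SL2 and 31.8% higher in Kc167. The largest ratio was that of mud, a spindle orientation gene, with 1.03 ± 0.10 (2.04-fold; limma adjusted p = 1.2e-05), and with 0.69 in the arrays with SL2 in Cy5 against 1.36 in the arrays with Kc167 in Cy5. The katanin-like gene kat-60L1 had 0.75 ± 0.07. The 3 genes higher in Kc167 were stai, the stathmin gene, with -0.22 ± 0.07, ens, the gene of a microtubule-binding partner of kinesin, with -0.68 ± 0.06, and spas, the gene of the severing enzyme spastin, with -0.50 ± 0.07. With the unmoderated fit neither mud (adjusted p = 0.064) nor spas (adjusted p = 0.052) passed.

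The motor genes measured under a name were few. Of 5 dynein and dynactin genes, 3 were higher in SL2, 1 higher in Kc167 and 1 did not pass, with a median of 0.57, beside the shares of 28.4% and 31.8% over all features. The dynein light chain genes ctp (0.76 ± 0.07) and Cdlc2 (0.64 ± 0.07) encode nearly identical proteins and may not be separated by cDNA clones. The intermediate chain gene sw had 0.57 ± 0.07 and the dynactin gene DCTN6-p27 had -0.36 ± 0.08. DCTN6-p27 did not pass with SL2 in Cy5 alone (-0.16, limma adjusted p = 0.18) or with the unmoderated fit (adjusted p = 0.11), where sw had adjusted p = 0.054. Of 3 kinesin genes, Klp98A had 0.41 ± 0.08, Klp10A, whose product takes tubulin off microtubule ends, had -0.32 ± 0.07, and Kap3 (0.09 ± 0.07) did not pass. Klp98A did not pass with SL2 in Cy5 alone (0.19, limma adjusted p = 0.14) and Klp10A did not on the arrays with Kc167 in Cy5 (-0.19, limma adjusted p = 0.13). With the unmoderated fit Klp98A had adjusted p = 0.10 and Klp10A had adjusted p = 0.059.

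**Figure D4:**
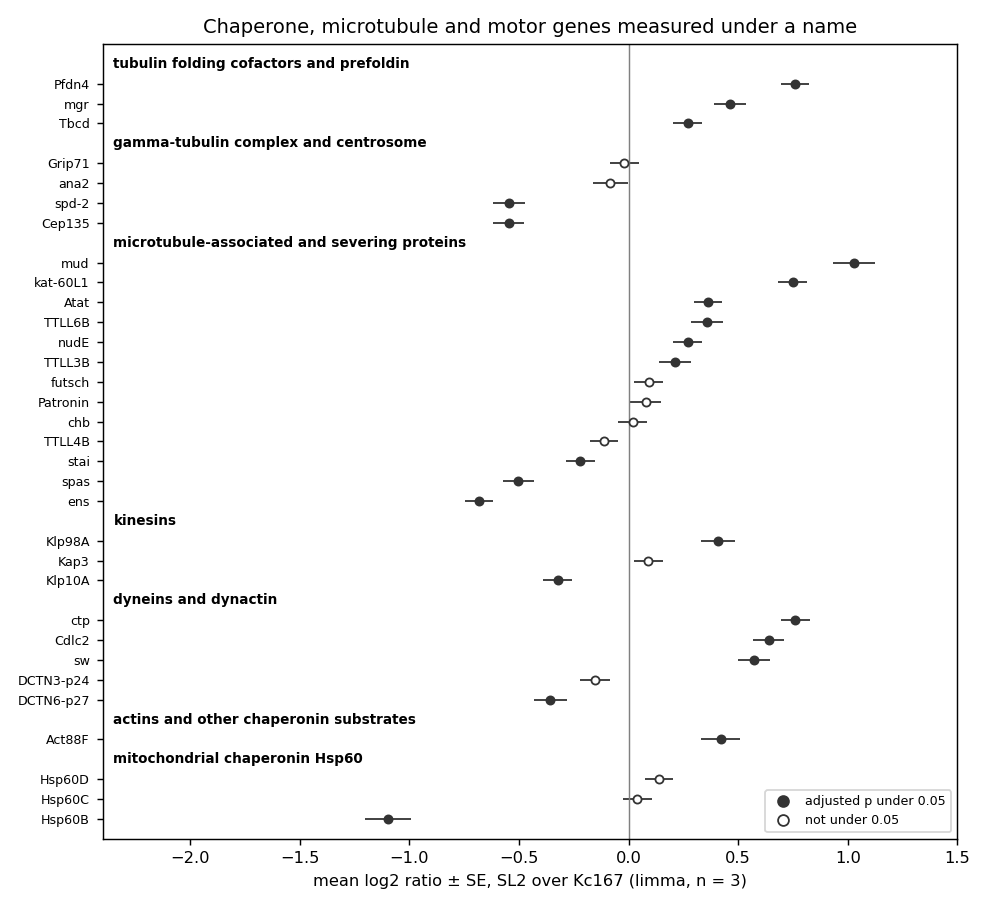
Mean log2 ratio ± SE (limma, n = 3) of the genes measured under a name in 7 lists of chaperone, microtubule and motor genes, with filled points for an adjusted p under 0.05. The 3 folding genes lie right of 0 at 0.27 to 0.76, the 4 centrosome genes lie at or left of 0, and the other lists with several genes are divided or undecided.

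Markers of cell types were divided as well, as were features in general, of which 28.4% were higher in SL2 and 31.8% in Kc167. Of 7 measured blood cell genes, 4 were higher in SL2 and 3 higher in Kc167, from 1.65 ± 0.10 for Pxn to -1.14 ± 0.06 for Ppn. Of 5 neuron and glia genes, 2 were higher in SL2, 1 higher in Kc167 and 2 did not pass. Of 4 muscle genes, Act88F passed and 3 did not. The part of cell identity in the tubulin and CCT ratios was not tested.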

How the data were processed

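Per the labels, a ScanArray 4000 scanned the slides and QuantArray version 3 (adaptive method) measured the spots, with background left in. The authors deposited log2 ratios per spot (base taken as 2) that come from normalised values, per the labels. The method of normalisation is not given in the sources used here, and neither are log base and direction. Intensities were not used here, so signal over background is unknown.

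Neighbouring spots of a clone were averaged (r = 0.98 between them), then the clones of a gene. All 5666 spots with 1 symbol matched the RefSeq table of Release 6 plus ISO1 MT by Entrez identifier; 152 had several symbols and 11078 none here. Of 8448 clones, 7581 had values on all 6 arrays. Columns had medians between -0.024 and 0.002 and correlated positively between orientations, so no sign was turned.

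Arrays with the same replicate number were averaged over the orientations, and the mean of n = 3 was tested against 0 (lmFit and eBayes, limma 3.58.1, R 4.3.3, two-sided, Benjamini-Hochberg over 7201 features, threshold 0.05); SE is limma's moderated SE. Differences between orientations (SL2 in Cy5 minus Kc167 in Cy5) were tested within same-numbered pairs. The fit was tested on simulated data. Figures used matplotlib 3.10.9.

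The family, gene lists and alternatives were chosen with earlier results of these data known. Named were the 10 genes, every measured folding gene, up to 4 called genes of each other list, and the 3 named genes nearest to the highest and the lowest member. Genes named as not passing, the called gene stai and the neighbours CG7766 and MCU lie outside this rule. They were chosen after their values were seen.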

Additional observations from a re-analysis of the deposited data

Results flagged for a closer look

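Of the genes named in the text, 8 had ratios that differed between the dye orientations by limma on the within-pair differences, beside 9.46% of all features. In the tubulin and CCT family this was gammaTub37C, with a mean of 0.21 with SL2 in Cy5 and 1.15 with Kc167 in Cy5, a difference of -0.94 ± 0.14 (limma adjusted p = 0.0098). Ratios lower with SL2 in Cy5 were also found for mud (-0.67), Cep135 (-0.49), spd-2 (-0.60), Hsp60B (-1.11) and the blood cell gene Pxn (-1.02). Ratios higher with SL2 in Cy5 were found for Act88F (0.67) and ens (0.51). Each of the 8 had the same sign of its mean ratio in both orientations.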

How the results depend on the processing

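Under all alternatives run, no tubulin or CCT gene changed direction. CCT4, CCT8, CCT5, betaTub85D and betaTub65B were called under each that gave a value, with ratios from 1.26 to 1.49, 0.84 to 1.03, 0.70 to 0.82, 1.11 to 1.38 and 0.62 to 0.93. With the unmoderated fit (no pooling of variance), 938 features were higher in SL2 and 988 higher in Kc167, with 5 and 0 genes of the family by limma; 8 of the 10 then had an unadjusted p under 0.05, CCT2 among them. With the arrays with SL2 in Cy5 alone, 7 genes were higher in SL2. The median over the 10 genes was 0.88 with that orientation alone, 0.92 with the first spot of each clone (9 genes, since CCT1 lacks a value) and 0.76 with the median of neighbouring clones removed, an alternative chosen after seeing the data, as was leaving out 1 array. Read as natural logarithms, 7 genes instead of 4 were at least 2-fold. Read as log2, alphaTub85E fell below 2-fold under some alternatives. It had 0.89 without replicate 1, 0.79 with Kc167 in Cy5 alone and 0.81 with the median of neighbouring clones removed, against 1.22 with SL2 in Cy5 alone. Leaving out each replicate gave 8 to 9 genes higher in SL2. It gave 1 to 994 features with an orientation difference, against 681, and 0 to 1 genes of the family; gammaTub37C had adjusted p = 0.065 without replicate 1 and 0.070 without replicate 2, where 1812 and 1279 features had an unadjusted p under 0.05 by limma. Without replicate 3 it passed (adjusted p = 0.0018). The cause was not tested.

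Arrays were paired by the replicate number in their titles. Deviations of same-numbered arrays from their orientation's mean had correlations of -0.07, 0.11 and -0.10 for replicates 1, 2 and 3. Differently numbered arrays had -0.18 to 0.20, so same-numbered arrays were no more alike than the others. The pairing thus rests on the titles alone. With the 6 arrays, a dye term and a replicate block, 2010 features were higher in SL2 and 2267 higher in Kc167, with 9 and 1 genes of the family. Without a replicate block, 877 features differed between orientations. Features with missing arrays were fitted only with a dye term, since a missing array breaks a pair.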
